A study of Mus musculus with 4 samples.

Results

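Fc gamma receptors bind the constant part of IgG antibodies, and the 6 mouse genes described here are the 4 receptor chains and a pair of signalling adaptors: Fcgr1, Fcgr2b, Fcgr3, Fcgr4, Fcer1g and Tyrobp. They were taken by symbol, 6 of the 32285 genes of the deposited tables. The set was chosen by a rule that used the measured levels of these genes in these same libraries, so their values by class and group are a description. Single-cell RNA was measured by droplet sequencing of poly-A RNA (3-prime v2 chemistry) in tumours of C57Bl6 mice aged 6 to 8 weeks, with 2 libraries labelled Nanocapsule treated and 2 labelled Control. The series title speaks of enzyme nanocapsules, T cell immunity and immunotherapy. The labels call the cells cancer cells. The tumour line, the enzymes in the capsules and what the control tumours received are not given there. The labels also do not say whether the libraries of a group came from separate animals, so p-values measure only the spread between these libraries.

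Activating receptors carry a ligand-binding chain and signal through the common gamma chain, encoded by Fcer1g, whose cytoplasmic ITAM motif recruits the kinase Syk after crosslinking by immune complexes. Fcgr1 encodes the high-affinity IgG receptor, and Fcgr3 and Fcgr4 encode activating receptors of lower affinity. Fcgr2b is the inhibitory member: its ITIM motif recruits the phosphatase encoded by Inpp5d, and it is the Fc gamma receptor of B cells. Tyrobp is an ITAM adaptor like the common gamma chain, but it pairs mainly with other receptors of myeloid and natural killer cells, such as Trem2. In tumours, the balance between activating and inhibitory receptors on macrophages and dendritic cells is known to bear on how these cells respond to antibody-coated targets.

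In the GENCODE annotation of build GRCm38, 4 of the 6 genes lie within 275.7 kb of chromosome 1. Fcgr2b (chr1:170958617-170976547, minus strand) and Fcgr4 (chr1:171018920-171029761, plus strand) are 42.4 kb apart, and Fcgr3 (chr1:171051174-171064935, minus strand) follows 21.4 kb further on. Fcer1g lies at chr1:171229572-171234365 on the minus strand. Fcgr1 lies at chr3:96282909-96293969 on the minus strand, and Tyrobp at chr7:30413760-30417585 on the plus strand. Fcgr2b and Fcgr3 are close copies, and 12.8% of the 50-base stretches of the longest Fcgr3 transcript also occur in an Fcgr2b transcript. In the last 500 bases, where a 3-prime library reads, none of the 12 ordered pairs of Fc gamma receptor genes shared such a stretch (0% each). Fcgr2b also overlaps the gene Gm38204 on the other strand.

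The promoters of Fcgr1, Fcgr4 and Fcgr2b are shown because these are the high-affinity receptor, the activating receptor with the largest fold below, and the inhibitory receptor. Each sequence runs from 250 bases before to 50 bases after the start site given by RefSeq (build GRCm38.p6), 5′ to 3′ on the strand of the gene. Capitals mark matches, on either strand, to the interferon-gamma-activated site TTCNNNGAA, an interferon-response-like motif (GAAA, any 2 bases, GAAA) and a motif GAGGAA of the kind bound by PU.1, the myeloid transcription factor. No match overlapped another. The windows are chr3:96293920-96294219 (minus strand), chr1:171018676-171018975 (plus strand) and chr1:170976022-170976321 (minus strand).
Fcgr1: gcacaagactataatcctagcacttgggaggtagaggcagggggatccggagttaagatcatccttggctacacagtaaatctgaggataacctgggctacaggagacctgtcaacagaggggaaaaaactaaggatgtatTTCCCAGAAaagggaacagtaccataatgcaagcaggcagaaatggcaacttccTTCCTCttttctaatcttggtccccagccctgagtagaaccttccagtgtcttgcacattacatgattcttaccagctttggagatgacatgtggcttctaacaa
Fcgr4: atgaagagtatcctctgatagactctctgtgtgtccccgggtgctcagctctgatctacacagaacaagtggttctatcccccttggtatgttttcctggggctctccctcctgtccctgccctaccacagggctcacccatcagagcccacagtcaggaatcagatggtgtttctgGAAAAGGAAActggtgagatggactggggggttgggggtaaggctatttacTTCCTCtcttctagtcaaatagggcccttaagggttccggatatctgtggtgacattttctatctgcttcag
Fcgr2b: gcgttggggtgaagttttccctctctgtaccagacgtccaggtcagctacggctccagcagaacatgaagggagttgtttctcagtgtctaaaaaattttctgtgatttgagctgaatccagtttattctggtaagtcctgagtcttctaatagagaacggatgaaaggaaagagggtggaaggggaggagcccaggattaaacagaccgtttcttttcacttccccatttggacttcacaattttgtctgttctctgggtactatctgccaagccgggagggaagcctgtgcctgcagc
The Fcgr1 window held TTCCCAGAA, starting at base -109 from the start site, and a GAGGAA match at base -55. The Fcgr4 window held GAAAAGGAAA at base -73 and a GAGGAA match at base -22. None of the 3 motifs was found in the Fcgr2b window. That window lies wholly inside the GENCODE span of the gene, whose 5′ end is at base 170976547, whereas the Fcgr1 and Fcgr4 windows contain the GENCODE 5′ ends. The sequence before the GENCODE 5′ end of Fcgr2b was not searched. Of the windows not shown, those of the 2 start sites listed for Fcgr3 held only a GAGGAA match, at bases -6 and -15. These Fcgr3 windows also lie wholly inside the GENCODE span of the gene, whose 5′ end is at base 171064935. The sequence before that end was not searched either. The Fcer1g window held none of the 3 motifs. In the windows searched, the interferon motifs were thus not found for every activating receptor. Of 32851 promoters of this length in the table, 8.30% held TTCNNNGAA, 3.44% held the interferon-response-like motif and 28.3% held GAGGAA on either strand. These matches describe letters in these windows and say nothing of binding.

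A barcode counted as a cell from 1500 UMIs (unique molecular identifiers, each standing for 1 captured transcript) and 200 genes upwards, if mitochondrial UMIs did not exceed 20%. The 2 nanocapsule libraries gave 2294 and 1577 cells from 108441772 and 105967866 UMIs, and the 2 control libraries 3837 and 1840 cells from 140491491 and 98943390 UMIs. Pairs of libraries shared 1 to 13 cell barcodes. Clusters formed without the 6 genes were named by marker genes and carry the ending "-like". Of these cells 6938 were melanocytic tumour-like, and 397 macrophage-like, 54 monocyte-like and 73 dendritic-like cells were also present. Macrophage-like cells numbered 73 and 88 in nanocapsule libraries, against 116 and 120 in control libraries. Monocyte-like cells numbered 11 and 16 against 13 and 14, and dendritic-like cells 11 and 18 against 13 and 31. Doublets were not called, and a cluster of 32 cells with both tumour and macrophage markers was left unnamed.

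Levels by cell class were read as CPM (counts per 10 to the power 6), the UMIs of a gene scaled by all UMIs of the class in that library. Across the 4 libraries, all 4 receptor chains were high in macrophage-like and monocyte-like cells. Conventional dendritic-like and melanocytic tumour-like cells held UMIs of all 4 at low levels, and each other class had no UMI of at least 1 chain. Fcgr1, the high-affinity receptor, averaged 236 ± 46.0 CPM in macrophage-like and 200 ± 117 CPM in monocyte-like cells (SD over n = 4 libraries in all class means). These 2 classes overlapped for every receptor chain, and no order between them is read. No Fcgr1 UMI was found in neutrophil-like, natural killer-like, B-like or erythroid-like cells. For the 26 neutrophil-like cells that zero allows up to 70.6 to 603 CPM, depending on the library, when 3 UMIs are taken as the limit.

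Fcgr3 averaged 516 ± 107 CPM in macrophage-like, 437 ± 121 CPM in monocyte-like and 373 ± 265 CPM in neutrophil-like cells, which overlapped. Natural killer-like cells followed with 39.8 ± 33.8 CPM, from 9 UMIs in 43 cells, although natural killer cells are known to carry this receptor. An Fcgr3 UMI was seen in 2 of 11 and 3 of 15 natural killer-like cells in nanocapsule libraries, against 0 of 3 and 4 of 14 in control libraries, at medians of 2282 to 5300 UMIs per cell. In B-like cells, which lack the receptor, it was seen in 0% of the cells of each library at medians of 1833 to 3324 UMIs. Fcgr4 averaged 233 ± 262 CPM in neutrophil-like, 124 ± 74.2 CPM in macrophage-like and 102 ± 65.6 CPM in monocyte-like cells, which overlapped. The neutrophil value rests on 11 UMIs. Fcgr4 had no UMI in plasmacytoid dendritic-like, natural killer-like, B-like or T-like cells.

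Fcgr2b, the inhibitory receptor, averaged 521 ± 153 CPM in macrophage-like, 404 ± 121 CPM in monocyte-like and 109 ± 31.4 CPM in B-like cells. The B-like libraries, at 71.6 to 147 CPM, lay below every macrophage-like and monocyte-like library. In B-like cells Fcgr2b was the only Fc gamma receptor with any UMI: 18 and 5 UMIs in nanocapsule libraries and 11 and 13 in control libraries, with none for Fcgr1, Fcgr3 or Fcgr4. Conventional dendritic-like cells averaged 32.1 ± 30.1 CPM. Neutrophil-like cells were the reverse of B-like cells, with 3 and 11 activating receptor UMIs in nanocapsule libraries and 3 and 29 in control libraries, and 2 Fcgr2b UMIs, both in control 2.

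The adaptors reached further than the receptors. Fcer1g averaged 3513 ± 294 CPM in monocyte-like, 3048 ± 115 CPM in macrophage-like, 2807 ± 703 CPM in natural killer-like, 1808 ± 998 CPM in neutrophil-like and 1042 ± 312 CPM in plasmacytoid dendritic-like cells. Monocyte-like libraries all lay above macrophage-like ones, while natural killer-like libraries overlapped both of these, and neutrophil-like libraries overlapped both neighbours in this order. Conventional dendritic-like cells, at 171 ± 56.7 CPM, lay below every library of those classes. Tyrobp averaged 4908 ± 347 CPM in plasmacytoid dendritic-like cells, 4262 ± 218 CPM in monocyte-like cells and 3194 ± 322 CPM in natural killer-like cells, with no overlap between these 3 classes. Neutrophil-like cells, at 3653 ± 1422 CPM, overlapped all of them, macrophage-like cells averaged 2356 ± 329 CPM, and conventional dendritic-like cells averaged 704 ± 118 CPM. Natural killer-like and plasmacytoid dendritic-like cells thus held both adaptors at over 1000 CPM on average with few receptor UMIs. In natural killer-like cells both adaptors were lower in both nanocapsule libraries: Fcer1g at 2449 and 2069 CPM against 3676 and 3034 CPM, and Tyrobp at 3189 and 2766 CPM against 3540 and 3282 CPM. The first control value of each rests on 3 cells, and the class was not fitted. Of 850 genes past the filter on low counts, 21.6% were lower and 18.7% higher in both nanocapsule libraries in the same way. The 9 natural killer markers summed to 9465 and 10072 CPM in nanocapsule libraries, against 16068 and 14674 CPM in control libraries, and their part in the adaptor values was not tested.

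**Figure D1:**
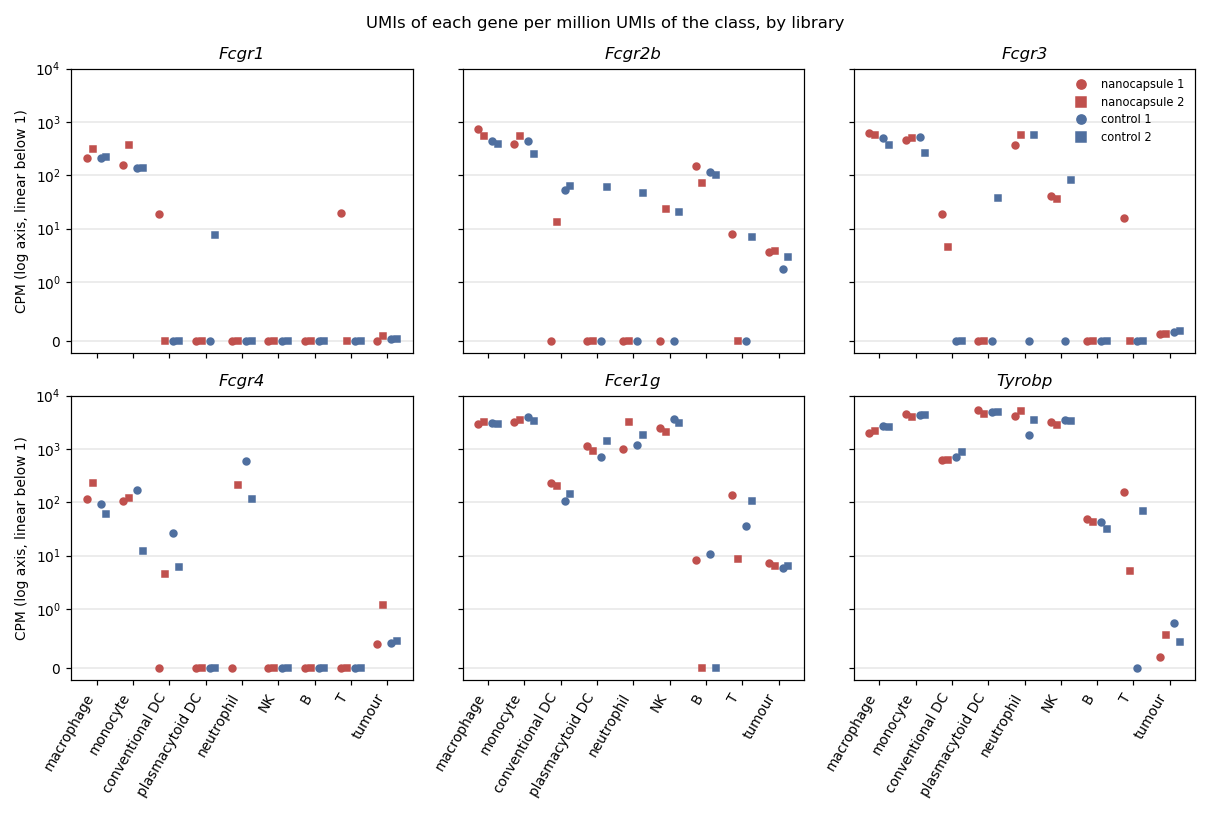
CPM of the 6 genes (log axis, linear below 1) in 9 cell classes, 1 point per library, with nanocapsule libraries in red and control libraries in blue. The 4 receptor chains share high levels in macrophage-like and monocyte-like cells, B-like cells hold Fcgr2b alone among the receptor genes, and the adaptors Fcer1g and Tyrobp are also high in natural killer-like and plasmacytoid dendritic-like cells.

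The macrophage-like class was the one class of the 3 myeloid ones with at least 20 cells in every library, so it alone of these 3 was fitted across genes. All 6 members passed the filter on low counts. On the TMM-normalised CPM scale, the 4 receptor chains and Fcer1g lay above both controls in both nanocapsule libraries, while Tyrobp lay below; on plain CPM, Fcgr1 and Fcer1g overlapped. No member passed the test. Of 8228 genes tested, 0% were called at a Benjamini-Hochberg adjusted p under 0.05 by edgeR's quasi-likelihood test. A share of 15.9% was higher and 16.6% was lower in both nanocapsule libraries in the same sense, against 5 of 6 and 1 of 6 members. An unadjusted p under 0.05 was reached by 326 genes, and DESeq2 called 6 genes, no member among them. All folds below are log2 of nanocapsule over control.

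Fcgr4 had 127 and 229 TMM-normalised CPM in nanocapsule libraries, against 92.6 and 56.8 in control libraries. Nanocapsule 2 stood highest and the groups did not overlap. The log2 fold was 1.28 ± 0.35 (SE), with an unadjusted p of 0.00636 and an adjusted p of 0.996 by edgeR's quasi-likelihood test. Fcgr4 was detected in 53.4% and 67.0% of macrophage-like cells in nanocapsule libraries and in 33.6% and 37.5% in control libraries. With every cell thinned to 1500 UMIs, these became 19.2% and 18.2% against 12.1% and 9.2%. In melanocytic tumour-like cells, at medians of 60519 and 86552 UMIs in nanocapsule libraries and 38207 and 76094 UMIs in control libraries, an Fcgr4 UMI was seen in 2.07% and 5.88% of cells against 1.65% and 2.88%.

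Fcgr2b had 811 and 538 TMM-normalised CPM in nanocapsule libraries, against 435 and 364 in control libraries. Nanocapsule 1 was highest, and again the groups did not overlap. The log2 fold was 0.75 ± 0.25, with an unadjusted p of 0.0179 and an adjusted p of 0.996 by edgeR. The activating and the inhibitory receptor with the largest folds thus peaked in different nanocapsule libraries. Leaving out either nanocapsule library leaves 1 in that arm, which is then assumed to vary like the controls. Without nanocapsule 2, when 3.66% of 8308 genes were called, Fcgr2b passed (log2 fold 1.03, adjusted p 0.00345, edgeR) while Fcgr4 had a log2 fold of 0.80 (adjusted p 0.0660, edgeR). Without nanocapsule 1, when 0.917% of 9050 genes were called, Fcgr4 passed (log2 fold 1.65, adjusted p 0.000544, edgeR) while Fcgr2b had a log2 fold of 0.44 (adjusted p 0.822, edgeR).

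Fcgr3 had 688 and 566 TMM-normalised CPM in nanocapsule libraries, against 508 and 353 in control libraries, a log2 fold of 0.54 ± 0.25 (adjusted p 0.996, edgeR). Fcgr1 had 239 and 304 against 211 and 205, a log2 fold of 0.38 ± 0.22 (adjusted p 0.996, edgeR). On plain CPM, Fcgr1 overlapped between groups, at 214 and 305 CPM in nanocapsule libraries and 210 and 216 CPM in control libraries. The smaller of the nanocapsule values therefore lay within the control range on that scale.

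Of the adaptors, Fcer1g had 3304 and 3183 TMM-normalised CPM in nanocapsule libraries, against 3094 and 2806 in control libraries, a log2 fold of 0.14 ± 0.21 (adjusted p 0.9995, edgeR). On plain CPM its groups overlapped. Tyrobp had 2191 and 2189 TMM-normalised CPM in nanocapsule libraries, against 2678 and 2468 in control libraries. It was the 1 member lower in both nanocapsule libraries, on plain CPM as well, with a log2 fold of -0.23 ± 0.20 (adjusted p 0.996, edgeR).

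**Figure D2:**
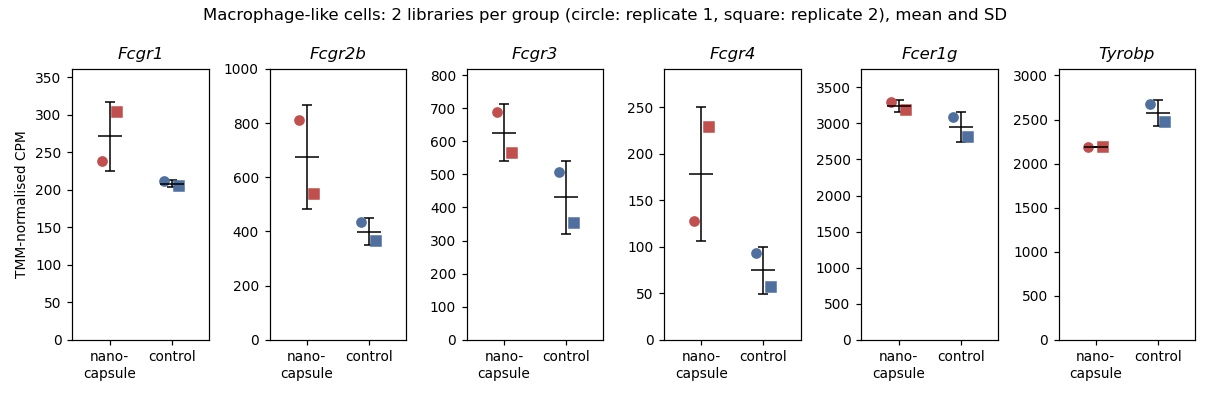
TMM-normalised CPM of the 6 genes in macrophage-like cells, with nanocapsule left of control. Points are libraries and bars are the mean and SD of 2 libraries. Fcgr4 and Fcgr2b are separated between groups but peak in different nanocapsule libraries, and Tyrobp is the gene that is lower in the nanocapsule group.

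Depth and cell makeup also differed between the groups. Macrophage-like cells had medians of 11888 and 14666 UMIs in nanocapsule libraries and 6049 and 10279 UMIs in control libraries. The 10 macrophage markers summed to 11254 and 11843 CPM in nanocapsule libraries, against 14646 and 19042 CPM in control libraries. The 10 monocyte markers summed to 919 and 1361 CPM against 1056 and 987 CPM, and the 9 melanocytic tumour markers to 320 and 243 CPM against 327 and 361 CPM. In each of these 3 sets every marker was detected. In the neutrophil set, 3 of 7 markers were at 0 and the sums were 33.6 and 36.9 CPM against 15.7 and 73.4 CPM. The part of depth and makeup in the folds was not tested.

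Among macrophage-like clusters, receptor levels differed by gene. A cluster of 44 cells with 1443 CPM of the interferon-inducible chemokine Cxcl9 held Fcgr4 at 422 CPM (95% Poisson interval 380 to 468), against 59.7 to 86.5 CPM in the other 5 clusters. Fcgr4 in this cluster was 482 and 426 CPM in nanocapsule libraries, against 482 and 247 CPM in control libraries, with no separation. The cluster held 4 and 32 cells of the nanocapsule libraries and 4 and 4 cells of the control libraries, so 32 of its 44 cells came from nanocapsule 2. Without it, in a comparison added after the data were seen, Fcgr4 was 96.0 and 94.7 CPM in nanocapsule libraries and 70.0 and 52.4 CPM in control libraries. The groups still did not overlap, but the log2 fold was 0.76 ± 0.25 (adjusted p 0.607, edgeR), against 1.28 with the cluster.

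Pooled over libraries, Fcgr2b was 866 CPM (803 to 933) in a cluster of 84 cells with Arg1 and Ppbp transcripts and 736 CPM (675 to 801) in the cluster of 79 cells with Vcan, but the order of clusters differed between libraries. In the first of these, Fcgr2b was 889 and 1254 CPM in nanocapsule libraries, against 534 and 475 CPM in control libraries. In the cluster of 91 cells with Arg1 and Fabp4, it was 467 and 549 CPM against 238 and 324 CPM. The groups were apart in both of these clusters, but the share of all genes apart in single clusters was not computed. In the whole macrophage-like class, 15.9% of genes were higher in both nanocapsule libraries on the TMM-normalised scale. For Fcgr2b, the groups overlapped in the Vcan cluster (1468 and 644 CPM against 732 and 588 CPM) and in the cluster with Mki67 and Retnla transcripts (446 and 361 CPM against 467 and 260.5 CPM). They also overlapped in the Cxcl9-led cluster, at 636 and 408 CPM in nanocapsule libraries and 545 and 1420 CPM in control libraries, and in the shallow cluster, at 308 and 0 CPM against 269 and 81.4 CPM. Without the Cxcl9-led cluster, Fcgr2b had a log2 fold of 0.94 ± 0.24 (adjusted p 0.519, edgeR). In that fit 0.0257% of 7786 genes were called and no member, while 18% were higher and 18.9% were lower in both nanocapsule libraries. On its TMM scale all 4 receptor chains were higher in both, Tyrobp was lower and Fcer1g overlapped.

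**Figure D3:**
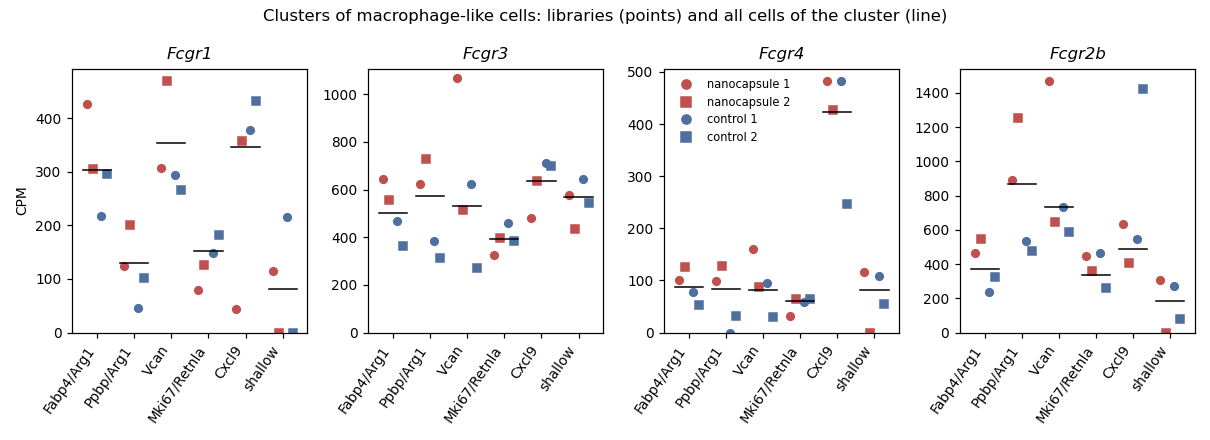
CPM of Fcgr1, Fcgr3, Fcgr4 and Fcgr2b in 6 clusters of macrophage-like cells, 1 point per library and a line for all cells of the cluster. Fcgr4 stands out in the Cxcl9-led cluster in both groups. Fcgr2b is higher in nanocapsule than in control libraries in the Arg1 and Ppbp and the Arg1 and Fabp4 clusters, and its groups overlap in the other clusters. The shallow cluster holds 26 cells with few UMIs.

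The balance of activating to inhibitory receptors was read as the share of Fcgr1, Fcgr3 and Fcgr4 UMIs among the UMIs of all 4 receptor genes. A UMI of a 3-prime library stands for a transcript end whatever the gene's length, but capture can differ between genes, so the share compares libraries and is no protein ratio. With 2 libraries against 2, the smallest p of the two-sided exact permutation test is 0.333. In macrophage-like cells the share was 56.5% (95% Clopper-Pearson interval 54.0 to 58.9) and 67.1% (65.4 to 68.8) in nanocapsule libraries. It was 65.1% (62.2 to 67.9) and 62.8% (60.2 to 65.4) in control libraries. The 2 nanocapsule libraries lay on either side of the controls, and the group means of 61.8% ± 7.52 and 64.0% ± 1.63 (SD, n = 2 each) differed by -2.17 percentage points (exact permutation p = 1.0). Without nanocapsule 1 the difference was 3.15 points, and without nanocapsule 2 it was -7.49 points.

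As a ratio, activating receptor UMIs were 1.30 and 2.04 times the inhibitory ones in nanocapsule libraries, against 1.87 and 1.69 times in control libraries. Nanocapsule 1 had the lowest ratio and nanocapsule 2 the highest. Among macrophage-like clusters, the Arg1 and Ppbp cluster had the lowest activating share in every library. It was 48.8% and 45.8% in nanocapsule libraries and 44.6% and 48.3% in control libraries. Other clusters came close in nanocapsule 1 (Mki67 and Retnla, 49.5%) and in control 2 (Vcan, 49.1%, and Cxcl9-led, 49.3%), so no order is read there. The Cxcl9-led cluster varied more than the Arg1 and Ppbp cluster, at 61.3% and 77.7% in nanocapsule libraries and 74.3% and 49.3% in control libraries. It had 4 cells in each library but nanocapsule 2. The Arg1 and Ppbp cluster made up 47.9% and 14.8% of macrophage-like cells in nanocapsule libraries and 16.4% and 14.2% in control libraries, and the Cxcl9-led cluster 5.48% and 36.4% against 3.45% and 3.33%. The part of these cluster sizes in the spread between libraries was not tested. Without the Cxcl9-led cluster the share was 56.3% and 58.3% in nanocapsule libraries, against 64.2% and 64.4% in control libraries, lower in both.

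Co-detection was read per cell. With each macrophage-like cell thinned to 1500 UMIs, an activating receptor and Fcgr2b were both seen in 46.6% and 39.8% of cells in nanocapsule libraries, against 30.2% and 29.2% in control libraries. The product of the 2 single shares, which is the value if detection of one were unrelated to the other, was 43.1% and 35.5% against 25.6% and 27.6%. Neither kind was seen in 13.7% and 17.0% of cells against 27.6% and 22.5%. Any activating receptor was seen in 76.7% and 76.1% against 59.5% and 62.5%. The groups did not overlap in any of these 3 shares, but the same was not read for other genes, so no background stands beside them.

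In monocyte-like cells the activating share was 64.9% (54.4 to 74.5) and 65.0% (58.2 to 71.3) in nanocapsule libraries, against 65.3% (53.5 to 76.0) and 62.3% (47.9 to 75.2) in control libraries. Every interval covered the other 3 values, and the difference of 1.14 points had an exact permutation p of 1.0; without control 2 it was -0.40 points. These shares rest on 94 and 217 receptor UMIs against 75 and 53. Fcgr1 was 153 and 376 CPM in monocyte-like cells of nanocapsule libraries, against 135 and 136 CPM in control libraries. The lower nanocapsule value rests on 13 UMIs (95% Poisson interval 81.7 to 262 CPM), against 8 and 11 UMIs in control libraries. Its groups did not overlap, and of 1480 genes past the filter on low counts in this class, 14.9% were higher and 14.8% lower in both nanocapsule libraries on plain CPM. Fcgr2b was 390 and 539 CPM against 440 and 248 CPM, Fcgr3 460 and 503 CPM against 525 and 260 CPM, and Fcgr4 106 and 121 CPM against 169 and 12.4 CPM. Control 2 was lowest for all 3 of these genes and the groups overlapped.

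An unnamed cluster of 64 cells with dendritic and macrophage markers, described below, is not part of the dendritic-like class. Dendritic-like cells held few receptor UMIs, 2 and 5 in nanocapsule libraries and 3 and 25 in control libraries. Their activating share was 100% (15.8 to 100) and 40.0% (5.27 to 85.3) in nanocapsule libraries, against 33.3% (0.840 to 90.6) and 28.0% (12.1 to 49.4) in control libraries. The groups did not overlap, with a difference of 39.3 points and an exact permutation p of 0.333, but the intervals of all 4 libraries did. Without nanocapsule 1 the difference was 9.33 points, and without nanocapsule 2 it was 69.3 points. The groups overlapped once the 5% deepest cells were left out. Fcgr2b was 0 and 11.1 CPM in dendritic-like cells of nanocapsule libraries, against 25.5 and 61.2 CPM in control libraries, lower in both, but it did not pass the filter on low counts. Of 3146 genes that passed in this class, 23.4% were lower and 12.6% higher in both nanocapsule libraries. The p of 0.333 is the smallest that 2 libraries against 2 allow, so this test could not show a difference in receptor balance at any depth. The shares also rest on few UMIs.

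**Figure D4:**
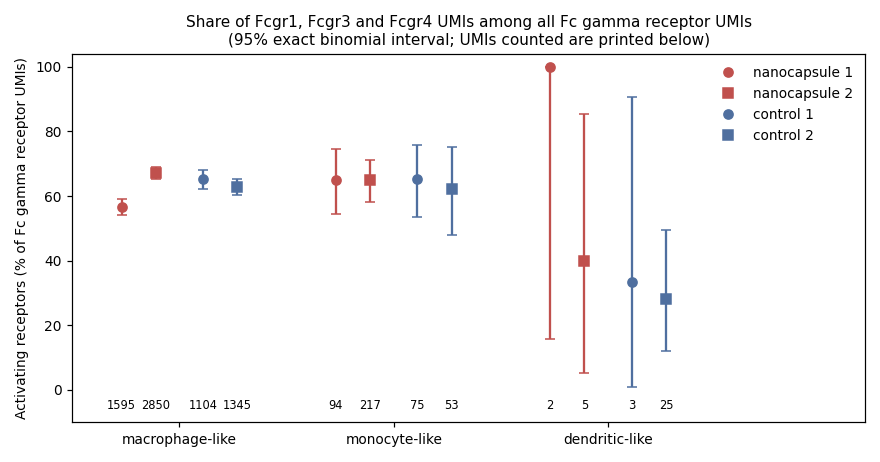
Share of activating receptors among Fc gamma receptor UMIs by library, with 95% Clopper-Pearson intervals and the number of UMIs printed below each point; nanocapsule libraries stand left of control libraries. The 2 nanocapsule libraries bracket the controls in macrophage-like cells, all libraries lie together in monocyte-like cells, and the dendritic-like intervals overlap.

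The genes around the receptors were followed in 5 lists, in the fit of macrophage-like cells. No list member was called, and the median log2 fold of all 8228 genes was 0.00. Of 15 kinases and adaptors after activating receptors, 14 were tested, all with overlapping groups and a median of -0.03. The adaptor Grb2 had 492 and 319 TMM-normalised CPM in nanocapsule libraries against 345 and 354 in control libraries. The Src-family kinase Lyn had 200 and 405 against 288 and 353, and the adaptor Gab2 had 296 and 220 against 223 and 291. For each of the 3, a nanocapsule library lay on either side of a control library. All 8 phosphatases and adaptors after inhibitory receptors were tested, with a median of 0.08: 7 overlapped and Ptpn11 (chosen after its value was seen) was higher in both nanocapsule libraries. The phosphatase gene Inpp5d, which acts after Fcgr2b, had 87.7 and 158 TMM-normalised CPM in nanocapsule libraries against 143 and 178 in control libraries. Ptpn6 had 109 and 260 against 153 and 143, and the adaptor Dok2 had 84.2 and 195 against 134 and 96.1.

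Among 13 tested of 21 receptors that pair with Tyrobp or Fcer1g, the median log2 fold was 0.30; 4 were higher and 2 lower in both nanocapsule libraries. Trem2, a lipid receptor that signals through Tyrobp, had 460 and 363 TMM-normalised CPM in nanocapsule libraries, against 569 and 699 in control libraries (log2 fold -0.63 ± 0.23, adjusted p 0.996, edgeR). Clec4n, a fungal-sugar receptor that signals through the common gamma chain, had 448 and 353 against 286 and 194 (log2 fold 0.74 ± 0.26, adjusted p 0.996, edgeR). Clec4d had 541 and 280 against 322 and 341 and overlapped. The others apart were Clec5a, Sirpb1c and Trem1, higher, and Cd300ld, lower, all named after their values were seen.

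Of 15 genes listed as inhibitory ITIM receptors, 12 were tested, with a median of -0.05. Whether each listed mouse protein, Cd33 among them, carries an ITIM was not checked. Lilrb4a was higher and Cd22 and Cd33 (both named after their values were seen) were lower in both nanocapsule libraries. Lilrb4a had 734 and 642 TMM-normalised CPM in nanocapsule libraries against 592 and 494 in control libraries, Sirpa 420 and 519 against 488 and 655, and Clec4a2 86.5 and 200 against 138 and 170. Sirpa and Clec4a2 overlapped between groups. Of 13 other Fc receptors, 4 were tested. Fcrls, an Fc-receptor-like scavenger receptor, had 10.5 and 20.1 against 55.4 and 81.6 TMM-normalised CPM (log2 fold -2.08 ± 0.36, adjusted p 0.510, edgeR). The neonatal Fc receptor gene Fcgrt had 42.1 and 52.3 against 45.2 and 62.6, Fcrlb 25.7 and 10.3 against 12.4 and 10.2, and the cytosolic receptor Trim21 (named after its value was seen) was higher in both nanocapsule libraries.

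Likeness over classes was read as the Pearson r of log2(CPM + 1) over 21 profiles (7 classes, each library with at least 20 cells), as a description. The profiles share libraries and depth. The classes were macrophage-like, B-like, T-like, erythroid-like, melanocytic tumour-like, fibroblast-like and endothelial-like cells. Monocyte-like, dendritic-like, neutrophil-like and natural killer-like cells were too few. A high r thus largely sets macrophage-like cells against non-myeloid classes, and Csf1r was itself a marker used to name them. The 3 genes most like Fcgr1 were Tgfbi (0.993), Gatm (0.989) and Pid1 (0.988). Those most like Fcgr3 were Pilra (0.994), Csf1r (0.991) and Pid1 (0.990). Fcgr4 was most like Slamf8 (0.978), Mgl2 (0.976) and Gm5150 (0.976), and Fcgr2b, which B-like cells also hold, most like Lat2 (0.971), Ctsh (0.960) and Apobec1 (0.954). For Fcer1g the 3 were Cd300c2 (0.963), Alox5ap (0.960) and Ccr1 (0.959), and for Tyrobp Wfdc17 (0.941), Fgr (0.937) and Riok3 (0.930).

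Melanocytic tumour-like cells held traces of the genes, and the proportions differed from those in macrophage-like cells. Fcer1g was 7.41 and 6.44 CPM in nanocapsule libraries and 5.92 and 6.37 CPM in control libraries, seen in 30.2% and 35.4% of cells against 18.9% and 29.0%, at medians of 60519 and 86552 UMIs against 38207 and 76094. With cells thinned to 1500 UMIs it was seen in 0.778% and 0.578% against 0.872% and 1.05%. Fcer1g UMIs outnumbered Tyrobp UMIs 38.1 and 11.5 times in nanocapsule libraries and 7.73 and 14.3 times in control libraries. In macrophage-like cells the same ratio was 1.51 and 1.45 against 1.16 and 1.14, and in near-empty barcodes (10 to 100 UMIs), which hold free RNA, 1.23 and 1.64 against 1.41 and 0.967. Of the tumour-like cells with an Fcer1g UMI, 7 of 466 and 6 of 367 also had a Tyrobp UMI in nanocapsule libraries, against 16 of 608 and 9 of 332 in control libraries.

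Fcgr2b showed the same kind of gap in tumour-like cells. Its UMIs outnumbered those of Fcgr3 30.1 and 33.2 times in nanocapsule libraries and 11.2 and 17.7 times in control libraries, against ratios of 0.625 to 1.18 in macrophage-like cells and near-empty barcodes. Fcgr2b was 3.58 and 3.78 CPM in nanocapsule libraries, against 1.76 and 2.98 CPM in control libraries. In a fit of these cells added after the data were seen, 0% of 16189 genes were called, and 19.8% were higher and 18.9% lower in both nanocapsule libraries. Of the 5 members tested, Fcgr2b and Fcer1g were higher and Fcgr3 lower in both, with Fcgr2b at a log2 fold of 0.66 ± 0.23 (adjusted p 0.644, edgeR).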

How the data were processed

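The authors deposited unfiltered matrices of raw UMI counts per gene and barcode, 1 per library. Per the labels' protocols, the chemistry was 10x Genomics single cell 3-prime v2. Per the submitters' processing notes, Cell Ranger 2.1.1 and mm10 were used, whereas the file headers name Cell Ranger 4; how multimapping reads and strand were handled is not given in the sources used here. The 6 genes and the gene lists were chosen with earlier results of these data known.

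Cells were filtered as stated and clustered in scanpy 1.11.5 (Python 3.11.15): counts scaled to 10000 per cell, 2000 variable genes, 30 components, 15 neighbours and Leiden resolution 1.0, first over all cells and then over immune cells, with the 6 genes left out. Clusters were named for the marker set whose median log2 fold against other clusters reached 3, given 3 or more markers at 5 CPM. The limit was 2 for tumour-like cells. Among immune cells, that fold also had to exceed the next set's by 1. The best set further had to hold more of the cluster's 10 leading genes than any other set. A cluster with no marker among them could still be named, unless it was shallow. These limits were set after the data were seen. No doublet caller was run.

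UMI counts were summed per library and class and, where every library had at least 20 cells, tested by the robust quasi-likelihood method of edgeR 4.0.16 (R 4.3.3) after filterByExpr and TMM scaling. Standard errors were derived from the log2 fold and its F statistic (SE = log2 fold / √F, in size). Monocyte-like, dendritic-like and natural killer-like cells were too few and were not fitted; for them the share of genes apart between groups was counted on plain CPM after filterByExpr. The fit was tested on simulated data for macrophage-like cells. Of 200 genes changed 4-fold, 197 were recovered among 7972 tested, with 7 false calls. The largest member fold in the main fit was smaller than that, at a log2 fold of 1.28 for Fcgr4. Recovery of changes as small as those of the members was not tested. The simulated counts had the same spread parameter for every gene, and changed genes were drawn from the more abundant ones. That setting was simpler than the data, so the recovery does not carry over to them. Named genes are the 6 members, the 3 most abundant members of each list, and the 3 genes most like each member. Intervals and limits of 3 UMIs cover counting error only. Alternatives included DESeq2 1.42.0, other cell filters and leaving out each library. Promoters came from the RefSeq table, which held 5 of the 6 genes.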

Additional observations from a re-analysis of the deposited data

Results flagged for a closer look

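Fcgr2b lay in opposite directions in 2 myeloid classes, higher in both nanocapsule libraries in macrophage-like cells and lower in both in dendritic-like cells. It passed the test in neither (adjusted p 0.996, edgeR, in macrophage-like cells; no fit in dendritic-like cells), and the difference between the classes was not tested. In macrophage-like cells its mean was 635 ± 133 CPM in nanocapsule libraries and 407 ± 35.3 CPM in control libraries, a difference of 227 CPM. In dendritic-like cells it was 5.57 ± 7.88 CPM in nanocapsule libraries and 43.3 ± 25.2 CPM in control libraries, a difference of -37.8 CPM that rests on 0 and 3 UMIs in nanocapsule libraries and 2 and 18 in control libraries. Of the 18 UMIs in control 2, 8 came from plasmacytoid dendritic-like cells. Single libraries were not screened for standing apart, since each group has 2.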

How the results depend on the processing

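Over 16 alternatives, all 6 members kept the direction of their log2 folds in macrophage-like cells, and 93 of 96 member values stayed on the same side of an adjusted p of 0.05 (edgeR or DESeq2). Fcgr4 ranged from 0.76 to 1.67 and Fcgr2b from 0.44 to 1.03 on the log2 scale, with adjusted p from 0.000544 to 1.00 and from 0.00345 to 1.00. Without a filter on low counts, 1 member (Fcgr4, adjusted p 0.000897, edgeR) and 78 genes were called. Leaving out each library called 0 to 1 members and 0 to 304 genes: 83 without nanocapsule 1, 304 without nanocapsule 2, 0 without control 1 and 2 without control 2. DESeq2 called 6 genes and, in an alternative added after the data were seen, the fit without the Cxcl9-led cluster 2. The replicate numbers correlated at r = 0.149 between groups, no label pairs them, and a replicate block called 1 gene and 0 members and left Fcgr2b at 0.73 and Fcgr4 at 1.27.

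The activating share in macrophage-like cells, lower by 2.17 points, turned to 6.19 points with Fcgr4 alone and ranged from -7.49 to 3.15 over left-out libraries, above 0 without nanocapsule 1. In monocyte-like cells, 1.14 points became -0.33 with Fcgr3 and Fcgr4 and -6.16 at a minimum of 1000 UMIs. It was 8.52 points without the 5% deepest cells and 4.14 at 10% mitochondrial UMIs. At resolution 2.0, or with the members kept in the clustering, it was 2.63. The exact permutation p was 0.333, the smallest possible, for the -6.16 as well as for 8.52, 4.14 and 2.63. Over left-out libraries the monocyte-like difference ranged from -0.40 (without control 2) to 2.67. In dendritic-like cells, 39.3 points ranged from 9.33 (without nanocapsule 1) to 69.3 (without nanocapsule 2). The difference was 30.9 points at resolution 2.0, 28.8 at a minimum of 1000 UMIs and 26.5 with the members kept in the clustering. Without the 5% deepest cells it was 46.7 points, but the groups overlapped (exact permutation p 0.667). The shares were then 100% and 25.0% in nanocapsule libraries, against 0% and 31.6% in control libraries. The causes were not tested. Treating same-numbered libraries as a replicate block leaves these differences unchanged by arithmetic. The sign-flip permutation p was at least 0.5, which is the smallest possible with 2 pairs. This alternative therefore could not decide anything about the shares. The order-of-magnitude filter left no monocyte-like or dendritic-like class, and in dendritic-like cells thinning or Fcgr4 alone left 1 nanocapsule library without a receptor UMI, so 2 libraries a group could not be compared. The fits of monocyte-like and dendritic-like cells were not run.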

Other observations

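A cluster of 64 cells led by Cd209a, with dendritic and macrophage markers together, was left unnamed at the resolution used. Its median log2 fold was 4.94 for the conventional dendritic and 3.88 for the macrophage set, which met the limits on folds. It stayed unnamed because its leading genes held Cd209a and Mgl2 of the first set but also C1qb and Mrc1 of the second. Its activating share was 63.2% and 66.0% in nanocapsule libraries, from 12 and 157 activating and 7 and 81 Fcgr2b UMIs, against 42.9% and 57.7% in control libraries, from 15 and 162 activating and 20 and 119 Fcgr2b UMIs. The groups did not overlap, and the difference was not tested. In this cluster Fcgr4 was 19.0 and 132 CPM in nanocapsule libraries and 14.3 and 71.2 CPM in control libraries, and the groups overlapped. At resolution 2.0, where more cells with dendritic markers were named, dendritic-like cells numbered 15 and 28 in nanocapsule libraries and 22 and 50 in control libraries, with activating shares of 66.7% and 59.8% against 36.8% and 27.7%.

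Fibroblast-like cells of control 1 held Fcer1g at 143 CPM and Tyrobp at 105 CPM, while those of the other 3 libraries held no UMI of either gene. These values were seen in 26 cells of control 1, against 5 and 5 cells in nanocapsule libraries and 12 in control 2. The fibroblast-like cells of control 1 also held Fcgr1, Fcgr2b and Fcgr3, at 11.6, 40.7 and 29.1 CPM. Near-empty barcodes of control 1 held Fcer1g at 51.0 CPM and Tyrobp at 36.3 CPM. The source of these UMIs was not tested.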
